A study of Mus musculus with 6 samples.

Results

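Proteasome genes were examined in RNA-seq libraries of mouse brain. The genes were the rows of the deposited expression table whose symbol starts with Psm, one of the letters a to g and a digit, and there were 50 of them among 23057 gene rows. They fall into 5 interferon-inducible members (Psmb8, Psmb9, Psmb10, Psme1 and Psme2), 31 constitutive subunits of the 20S core and the 19S cap, 10 accessory members (assembly chaperones, other activators and an inhibitor), 2 tissue-restricted core subunits (Psma8 and Psmb11), and 2 further symbols, Psmc3ip, a meiotic recombination gene that only shares the letters, and Psme2b, a copy of Psme2. The inducible members were set against the constitutive subunits in 3 brains of C57BL/6 mice whose heads were exposed to X-rays at a total of 10 Gy through a collimator (IR), and in 3 brains of mock-irradiated C57BL/6 mice (mock). All were taken at day 30 after perfusion with saline, and the labels give no age or sex. Values are FPKM, in which reads on a gene are divided by its length and by the size of the library.

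The proteasome degrades proteins marked with ubiquitin. Its 20S core is a barrel of alpha and beta rings, and the beta subunits encoded by Psmb5, Psmb6 and Psmb7 carry the proteolytic sites. Interferon, above all interferon-gamma, induces Psmb8, Psmb9 and Psmb10, whose products replace those 3 subunits in newly built cores and give the immunoproteasome, which favours peptides that fit MHC class I molecules. Psme1 and Psme2 encode the alpha and beta chains of PA28, an interferon-inducible ring that opens the core. In brain the immunoproteasome is known mainly from microglia and from infiltrating immune cells, while neurons mainly carry the constitutive form.

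Promoters of 4 members are shown: Psmb8, Psmb9 and Psme1 because they are the members called higher, and Psmb5 because it is the constitutive counterpart of Psmb8 and the constitutive subunit with the highest log2 change. The windows are RefSeq sequence of build GRCm38.p6, 250 bases before to 50 bases after a gene start, read along the gene's own strand. Capitals mark matches on either strand to 4 motifs: the interferon-stimulated response element, which is GAAA, any 2 bases and GAAA again, the gamma-activated site TTCNNNGAA, the antioxidant response element TGACNNNGC and the CCAAT box CCAAT. Each of these 4 windows held 1 match.
Psmb8, chr17:34197945-34198244, plus strand: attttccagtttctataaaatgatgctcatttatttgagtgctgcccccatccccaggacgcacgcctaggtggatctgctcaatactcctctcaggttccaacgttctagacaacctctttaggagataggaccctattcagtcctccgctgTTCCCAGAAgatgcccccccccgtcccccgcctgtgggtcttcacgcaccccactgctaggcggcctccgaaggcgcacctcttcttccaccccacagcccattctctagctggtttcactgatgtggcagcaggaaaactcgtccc
Psmb9, chr17:34187281-34187580, minus strand: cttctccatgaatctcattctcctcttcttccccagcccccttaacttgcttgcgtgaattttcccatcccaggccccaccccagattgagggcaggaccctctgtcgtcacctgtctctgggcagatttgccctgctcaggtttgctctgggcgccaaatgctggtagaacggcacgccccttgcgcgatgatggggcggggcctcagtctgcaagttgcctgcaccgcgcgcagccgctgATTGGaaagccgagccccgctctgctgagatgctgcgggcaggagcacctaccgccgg
Psme1, chr14:55578244-55578543, plus strand: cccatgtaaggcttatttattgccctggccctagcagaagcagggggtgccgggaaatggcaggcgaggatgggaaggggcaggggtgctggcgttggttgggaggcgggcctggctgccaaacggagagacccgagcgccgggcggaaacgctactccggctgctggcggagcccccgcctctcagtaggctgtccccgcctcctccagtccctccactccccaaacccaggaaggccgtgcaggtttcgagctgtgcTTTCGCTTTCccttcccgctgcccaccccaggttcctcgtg
Psmb5, chr14:54617946-54618245, minus strand: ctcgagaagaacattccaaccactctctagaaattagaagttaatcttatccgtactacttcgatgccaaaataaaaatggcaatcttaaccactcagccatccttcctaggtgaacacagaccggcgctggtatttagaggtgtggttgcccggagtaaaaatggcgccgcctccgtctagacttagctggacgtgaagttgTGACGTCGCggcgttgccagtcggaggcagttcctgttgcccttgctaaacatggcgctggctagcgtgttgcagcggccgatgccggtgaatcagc

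The match in the Psmb8 window is a gamma-activated site that begins 97 bases upstream of the start, and the match in the Psme1 window is a response element that begins 9 bases downstream of it. The Psmb5 window holds an antioxidant response element 47 bases upstream, and the Psmb9 window holds a CCAAT box 8 bases upstream. RefSeq windows were at hand for 42 members. The response element was found in 1 of the 5 inducible members, in 2 of 25 constitutive subunits with a window (Psmb3 and Psmd4) and in 3.91% of 17180 genes of the table with a window. The gamma-activated site was found in 1 inducible member, in 1 constitutive subunit (Psmd2) and in 9.26% of the genes with a window. The antioxidant response element was found in 0 inducible members, in 4 constitutive subunits (Psmb5, Psmb6, Psmc6 and Psmd12) and in 15.0% of genes, and the CCAAT box in 1 inducible member, in 10 constitutive subunits and in 41.9% of genes. These are descriptions of the letters in the windows.

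Psmb8 and Psmb9 lie in the MHC region of chromosome 17 on either side of Tap1, a chain of the transporter that carries cytosolic peptides into the endoplasmic reticulum. In RefSeq (GRCm38.p6), Psmb9 spans 34182030 to 34187330, Tap1 spans 34187556 to 34197225 and Psmb8 spans 34198195 to 34201454. The starts of Psmb9 and Tap1 are 226 bases apart on opposite strands, and their promoter windows share 275 bases. Psme1 (55578494 to 55581527) and Psme2 (55587440 to 55591101) lie 5912 bases apart on chromosome 14, with Emc9 between them, and Psmb10 (105935728 to 105938392) is on chromosome 8.

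The labels call the samples whole brain, but markers of brain regions set the groups apart. The sum of 6 cerebellar genes was 17.4 to 50.4 FPKM in IR and 769.8 to 974.3 FPKM in mock brains, with Gabra6 listed at 0 in IR 2, and that of 6 telencephalic genes was 63.7 to 135.5 FPKM in IR and 6.67 to 34.6 FPKM in mock brains. Regional makeup and irradiation therefore cannot be told apart for any difference given here.

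All 5 inducible members had higher mean levels in the IR brains, by 1.73 to 2.15 times in FPKM, and 3 of them, Psmb8, Psmb9 and Psme1, passed the test across all genes, while 0 of the 31 constitutive subunits did. A gene was called higher or lower at an adjusted p under 0.05 in limma, fitted on log2(FPKM + 0.5) to the 14585 genes that averaged 0.5 FPKM or more over the 6 libraries. Of those genes 3.48% were called higher and 4.24% lower, 7.72% in all. Log2 changes below are on that scale, where the added constant makes changes of weakly expressed genes look smaller. Of the 50 genes, 47 passed the filter on low values, and the 3 called were all inducible members; 0 members were called lower (1 at an unadjusted p under 0.05).

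Psmb8, which encodes the inducible subunit beta5i (LMP7), was at 9.82, 7.45 and 8.55 FPKM in IR brains and at 3.76, 4.24 and 6.08 FPKM in mock brains. Each IR brain lay above each mock brain, with mock 3 the highest of the mock group. The log2 change was 0.83 (SE 0.21, 95% interval 0.36 to 1.30, limma adjusted p = 0.048). Psmb9, which encodes beta1i (LMP2), was at 4.51, 3.05 and 3.07 FPKM in IR brains and at 1.65, 1.33 and 1.97 FPKM in mock brains. These groups were apart as well, and IR 1 was the highest. Its log2 change was 0.90 (SE 0.21, 95% interval 0.43 to 1.38, limma adjusted p = 0.038). Groups that were apart with IR above mock were found for 13.7% of all tested genes.

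Psmb10, which encodes beta2i (MECL-1), was at 67.4, 35.5 and 49.3 FPKM in IR brains and at 24.3, 22.7 and 37.9 FPKM in mock brains. The groups overlapped, since IR 2 lay below mock 3. Its log2 change, 0.82 with an SE of 0.27 and a 95% interval of 0.19 to 1.45, was close in size to that of Psmb8 but was not called (limma adjusted p = 0.11).

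Psme1, PA28 alpha, was at 95.3, 58.2 and 66.5 FPKM in IR brains and at 31.4, 33.0 and 48.4 FPKM in mock brains. Each IR brain was above each mock brain. The log2 change was 0.95 (SE 0.24, 95% interval 0.40 to 1.498, limma adjusted p = 0.049). Its annotated span shares 9 bases with Emc9, a gene of a membrane protein complex, for which the log2 change was 0.04 (SE 0.18). Psme2, PA28 beta, was at 61.7, 25.9 and 33.2 FPKM in IR brains and at 19.7, 21.6 and 28.4 FPKM in mock brains. IR 2 lay below mock 3 here too, and IR 1 stood well above the others. The log2 change was 0.70 (SE 0.31, 95% interval 0.0057 to 1.40, limma adjusted p = 0.19). Without IR 1 it was 0.35, and without mock 2 and IR 1 together it was 0.31, where that of Psmb10 was 0.46.

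The 3 calls stood close to the threshold and depended on single libraries. Without mock 1, mock 2, IR 1, IR 2 or IR 3, each left out alone, 0 of the 5 genes were called, and without mock 3, 2 were called (Psmb8 and Psme1). The largest adjusted p on leaving out a library was 0.16 for Psmb8, 0.12 for Psmb9 and 0.16 for Psme1. Each of the 3 calls held in 7 of 16 alternative settings. Those of Psmb8, Psmb9 and Psme1 were also lost without the filter on low values, and those of Psmb8 and Psme1 with a pseudocount of 0.1. The log2 changes stayed above 0 in each of the 16, from 0.68 to 1.01 for Psmb8, 0.63 to 1.05 for Psmb9 and 0.67 to 1.14 for Psme1.

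**Figure D1:**
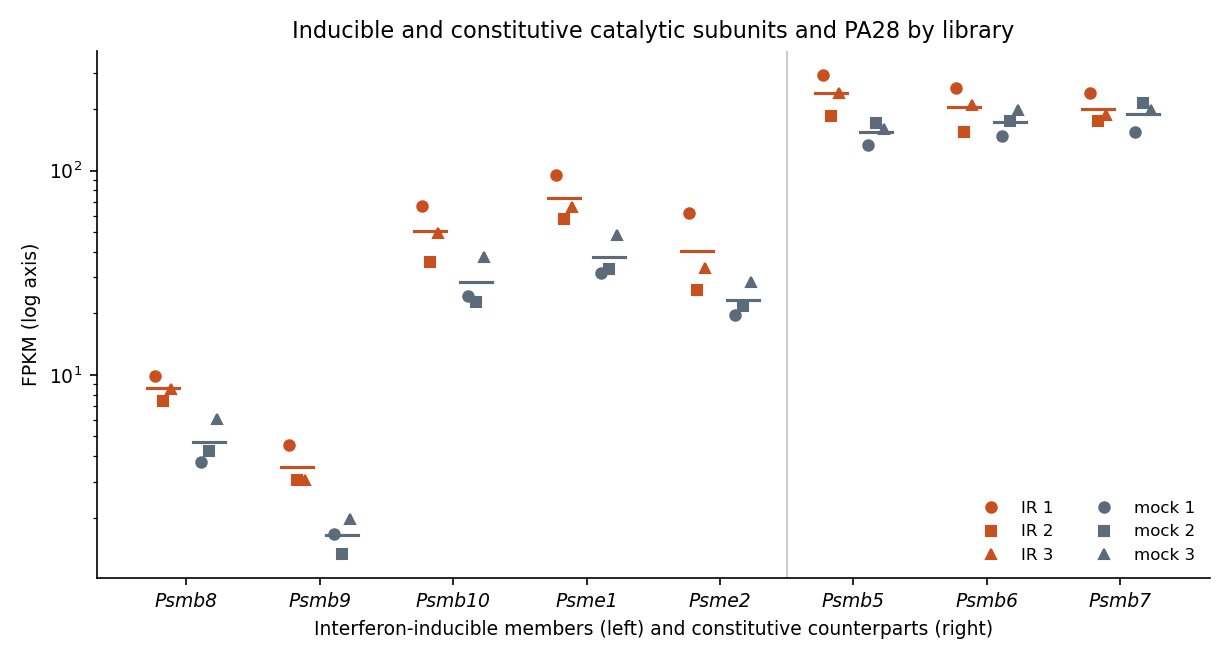
FPKM (log axis) of the 5 interferon-inducible members and of the 3 constitutive catalytic subunits in each library, IR left of mock; symbols are replicates and short lines are group means. Psmb8, Psmb9, Psme1 and Psmb5 have every IR library above every mock library, while Psmb10 and Psme2 overlap because IR 2 lies below mock 3.

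The inducible genes differed widely in level, on the FPKM scale, which is per length. Psme1 averaged 73.3 ± 19.5 FPKM in IR and 37.6 ± 9.39 FPKM in mock brains (SD, n = 3 each). Psmb10 averaged 50.8 ± 16.0 FPKM in IR and 28.3 ± 8.33 FPKM in mock brains, and Psme2 averaged 40.3 ± 18.9 FPKM in IR and 23.2 ± 4.59 FPKM in mock brains. Within a group these 3 neighbours overlapped, but within each of the 6 libraries Psme1 was above Psmb10 and Psmb10 above Psme2. Psmb8 averaged 8.61 ± 1.19 FPKM in IR and 4.69 ± 1.23 FPKM in mock brains, and Psmb9 averaged 3.54 ± 0.84 FPKM in IR and 1.65 ± 0.32 FPKM in mock brains. Psmb8 and Psmb9 therefore stood apart from each other and from the other 3 in both groups.

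The constitutive catalytic subunits were far more abundant than their inducible counterparts. Psmb5, which encodes the chymotrypsin-like subunit beta5, was at 294.9, 184.3 and 239.7 FPKM in IR brains and at 132.9, 171.4 and 160.1 FPKM in mock brains. The groups did not overlap, which made it the only one of the 31 constitutive subunits that was separated. Over all tested genes, 13.7% had each IR brain above each mock brain. With a log2 change of 0.61 (SE 0.22, 95% interval 0.11 to 1.11) it headed the constitutive subunits, but it was not called (limma adjusted p = 0.12), and it was 0.36 after quantile normalization. Psmb6, which encodes beta1, was at 253.2, 154.2 and 210.0 FPKM in IR brains and at 147.7, 175.7 and 197.9 FPKM in mock brains. Psmb7, which encodes beta2, was at 239.1, 174.1 and 187.4 FPKM in IR brains and at 155.3, 213.6 and 197.6 FPKM in mock brains. Both overlapped between the groups, with log2 changes of 0.22 (95% interval -0.29 to 0.74, limma adjusted p = 0.56) and 0.08 (95% interval -0.38 to 0.55, limma adjusted p = 0.82).

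Setting each inducible subunit against the one it replaces in the same library cancels any scaling of the library as a whole. The level of Psmb9 was 1.78%, 1.98% and 1.46% of that of Psmb6 in IR brains, against 1.12%, 0.755% and 0.997% in mock brains. The level of Psmb10 was 28.2%, 20.4% and 26.3% of that of Psmb7 in IR brains, against 15.7%, 10.6% and 19.2% in mock brains. In both pairs each IR brain was above each mock brain. The level of Psmb8 was 3.33%, 4.04% and 3.57% of that of Psmb5 in IR brains, against 2.83%, 2.47% and 3.799% in mock brains, and here mock 3 lay above IR 1 and IR 3. The IR-minus-mock difference of the log2 ratio, taken on FPKM + 0.5, was 0.68 for Psmb9 to Psmb6 and 0.74 for Psmb10 to Psmb7, each with p = 0.1 in an exact two-sided permutation test, the smallest value that 3 against 3 allows, and 0.15 after Benjamini-Hochberg adjustment over the 3 pairs. For Psmb8 to Psmb5 it was 0.22 (exact permutation p = 0.3, and 0.3 after adjustment), and its groups overlapped.

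**Figure D2:**
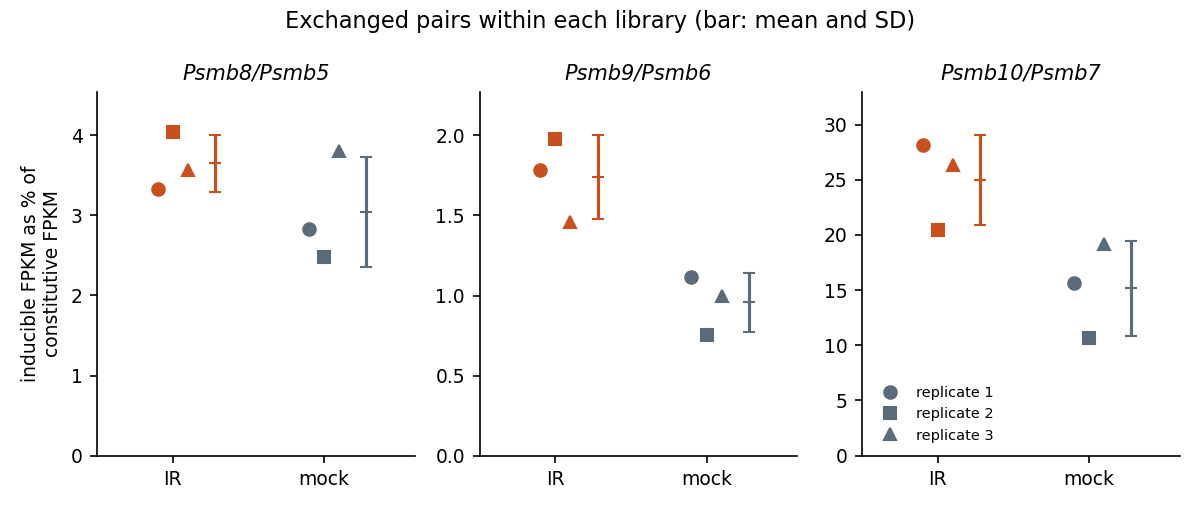
FPKM of the inducible subunit as a percentage of the FPKM of the constitutive subunit it replaces, in each library, IR left of mock, with the mean and SD of each group beside the points. The IR and mock libraries do not overlap for Psmb9/Psmb6 and Psmb10/Psmb7 and do overlap for Psmb8/Psmb5.

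The 31 constitutive subunits gave 0 calls in either direction in limma. At an unadjusted p under 0.05, 1 was higher (Psmb5) and 0 were lower, where 11.7% of all tested genes were higher and 13.9% lower. Their log2 changes ran from -0.28 for Psmc6 to 0.61 for Psmb5, with a median of 0.23, against a median of -0.018 over all tested genes. Of the 31, 27 were above 0, against 48.2% of all tested genes. The median was 0.27 with each library centred on its median, 0.02 after quantile normalization, 0.11 without mock 1 and 0.11 without IR 1. The median over the 5 inducible members was 0.83, and 0.87 and 0.82 under the same pair of scalings. All 50 genes together made up 0.87%, 0.75% and 0.78% of the summed FPKM in IR 1, 2 and 3. In mock 1, 2 and 3 they made up 0.71%, 0.85% and 0.81%, so these shares overlapped between the groups.

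The 7 genes of the alpha ring, which forms the gate of the core, had log2 changes from -0.0030 (Psma3) to 0.26 (Psma5), with a median of 0.07. The 4 non-catalytic beta genes had a median of 0.34, from 0.26 for Psmb1 to 0.43 for Psmb4. Psmb4 was at 348.4, 212.1 and 276.0 FPKM in IR brains and at 168.2, 203.8 and 244.9 FPKM in mock brains, and the groups overlapped. The 6 ATPases of the 19S base, which unfold substrates and feed them into the core, had a median of 0.25. Psmc3 was at the top with 0.39 (SE 0.26, limma adjusted p = 0.38), and Psmc6 at the bottom with -0.28 (SE 0.21, limma adjusted p = 0.43). The 11 other 19S subunits, among them the ubiquitin receptor Psmd4 and the deubiquitinase Psmd14, had a median of 0.23, from -0.06 for Psmd11 to 0.38 for Psmd3. For Psmd4 the log2 change was 0.28 (SE 0.20) and for Psmd14 it was 0.09 (SE 0.22), and neither was called. The mean levels of the 31 genes ran from 29.5 FPKM (Psmd11) to 278.8 FPKM (Psmb4) in IR brains, and from 30.8 FPKM (Psmd11) to 261.0 FPKM (Psmc5) in mock brains.

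**Figure D3:**
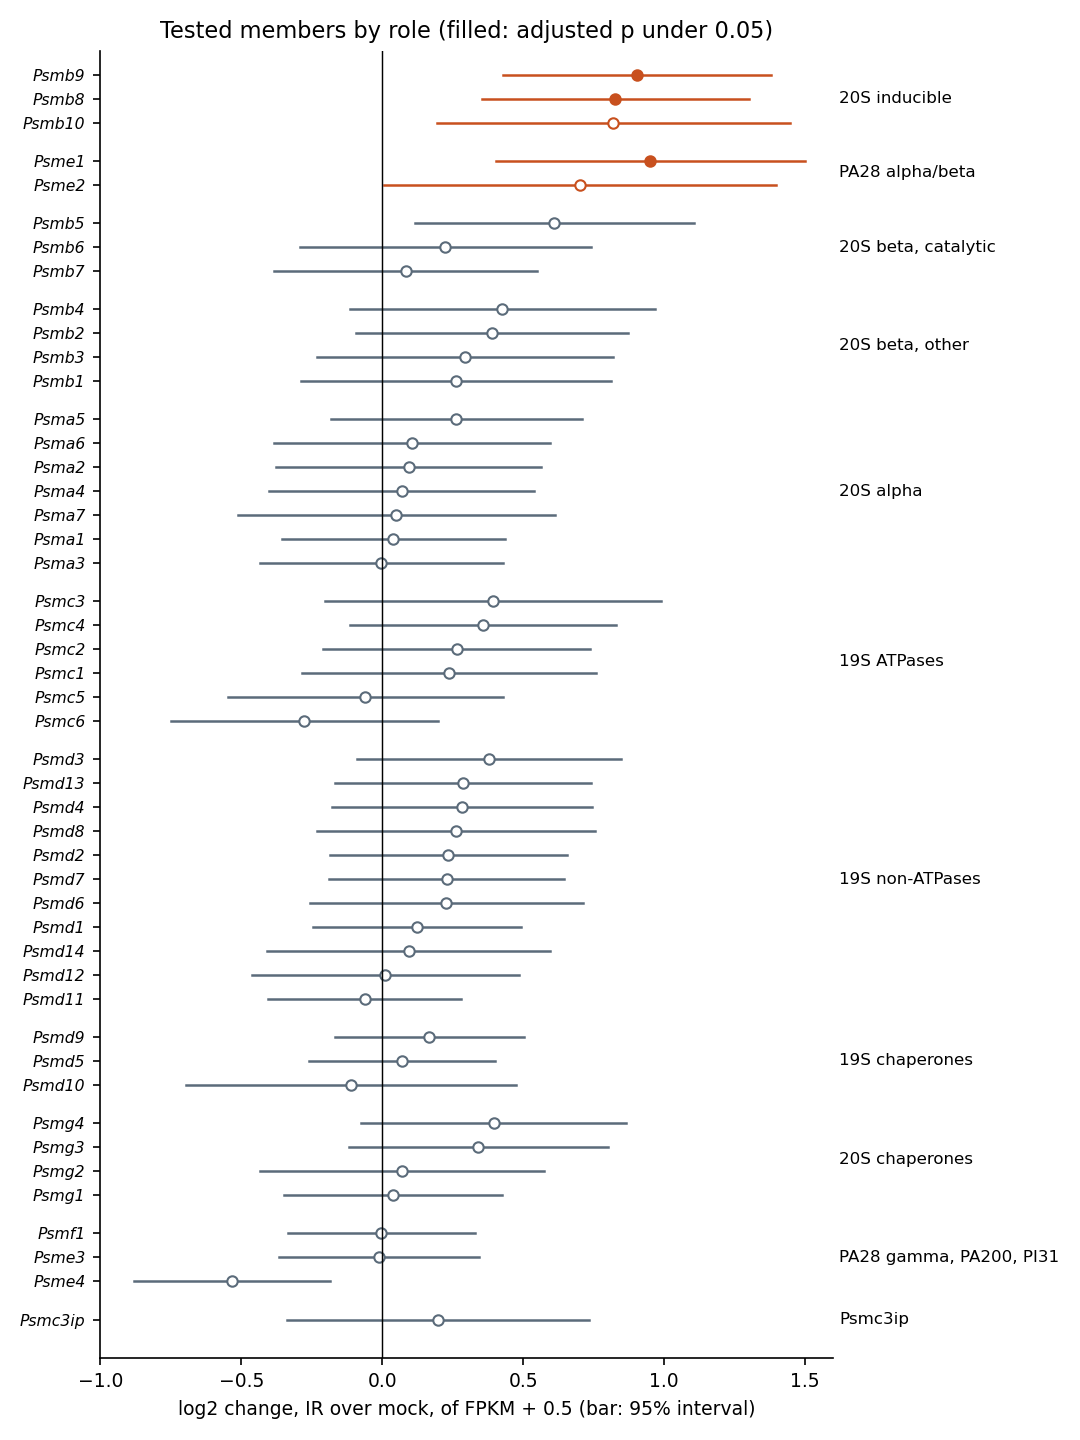
The log2 change (IR over mock, FPKM + 0.5) of the 47 tested genes with its 95% interval, grouped by role, with inducible members in orange and filled points for an adjusted p under 0.05. The inducible members lie between 0.70 and 0.95, and the constitutive subunits between -0.28 and 0.61.

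The constitutive subunits shared a pattern over the libraries, and the groups overlapped. IR 1 was the highest of the 6 libraries for 19 of the 31 subunits, and mock 1 the lowest for 23 of them. The median deviation of the 31 subunits from their own 6-library means was 0.32, -0.18 and 0.19 on the log2 scale in IR 1, 2 and 3, and -0.34, -0.03 and 0.11 in mock 1, 2 and 3. IR 2 therefore lay below mock 2 and mock 3. The median deviation of all tested genes stayed between -0.022 and 0.049 in the 6 libraries. The FPKM summed over all genes varied more, at 625782, 510046 and 621850 in IR 1, 2 and 3. In mock 1, 2 and 3 it was 472450, 482411 and 571078. This sum was thus also highest in IR 1 and lowest in mock 1. Whether the pattern is particular to the constitutive subunits was not tested. The inducible members had median deviations of 0.86, 0.18 and 0.37 in IR 1, 2 and 3, and of -0.59, -0.63 and -0.05 in mock 1, 2 and 3, so that IR 1 was the highest library by both medians. The part of this shared shift in the calls was not tested.

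**Figure D4:**
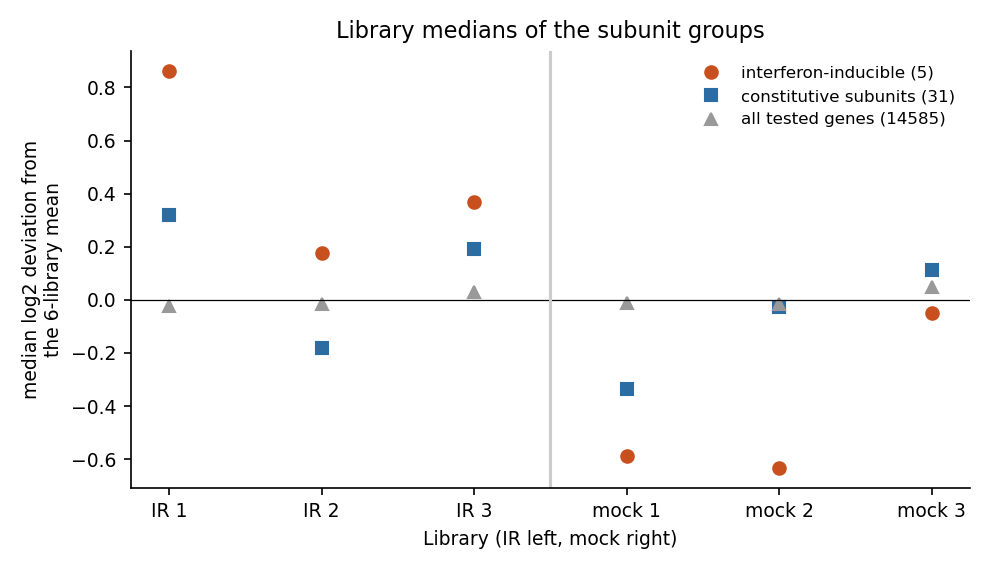
Median log2 deviation from the 6-library mean in each library, for the 5 inducible members, the 31 constitutive subunits and all 14585 tested genes. The inducible medians are above 0 in the IR libraries and below 0 in the mock libraries, while the constitutive median of IR 2 (-0.18) is below those of mock 2 and mock 3.

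The inducible members were also set against the median of the 31 constitutive subunits in the same library, a comparison chosen after the values were seen. All 5 then had each IR brain above each mock brain. In FPKM alone 3 of the 5 were apart, and Psmb10 and Psme2 overlapped. The share of all tested genes that are apart on the relative scale was not computed, so the count has no background to be read against. The constitutive subunits had a median deviation of -0.18 in IR 2 and 0.11 in mock 3, the libraries that overlapped for Psmb10 and Psme2. The relative scale therefore moves those libraries apart by its construction. On this scale Psme1 was at -0.48, -0.82 and -1.03 in IR brains and at -1.504, -1.66 and -1.32 in mock brains, a difference of 0.72. Psmb8 was at -3.69, -3.70 and -3.91 in IR brains and at -4.41, -4.48 and -4.22 in mock brains, a difference of 0.60. Psmb9 and Psmb10 differed by 0.67 and 0.59. Psme2 differed by 0.47, and the gap between its groups was narrow, with IR 3 at -2.02 and mock 3 at -2.08.

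Of the 10 accessory members, 0 were called in limma, with 1 (Psme4, below mock) at an unadjusted p under 0.05, and the median log2 change was 0.05. Psme4, which encodes the nuclear activator PA200, was at 5.36, 6.41 and 6.28 FPKM in IR brains and at 8.84, 9.27 and 8.62 FPKM in mock brains. Each IR brain was below each mock brain, as for 17.7% of all tested genes. With a log2 change of -0.53 (SE 0.15, 95% interval -0.88 to -0.19) it was not called either (limma adjusted p = 0.069). Psme3, PA28 gamma, a nuclear activator that interferon does not induce, stood at -0.01 on the log2 scale with a 95% interval of -0.37 to 0.34. For Psmf1, which encodes the inhibitor PI31, that value was -0.0027 with an interval of -0.33 to 0.33. The 4 chaperones of core assembly, Psmg1 to Psmg4, ran from 0.04 (Psmg1) to 0.39 (Psmg4), and the 3 of the 19S base from -0.11 (Psmd10) to 0.17 (Psmd9). Psmd9 was the only member of this group with each IR brain above each mock brain, at 17.7, 15.7 and 16.7 FPKM in IR brains and 13.5, 15.4 and 15.6 FPKM in mock brains (limma adjusted p = 0.50). That separation was found for 13.7% of all tested genes.

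The 3 genes below the filter were Psma8, Psmb11 and Psme2b. Psma8, a core subunit of the testis, was at 0.178, 0.145 and 0.0847 FPKM in IR brains and at 0.288, 0.308 and 0.316 FPKM in mock brains. Psmb11, a core subunit of the thymus, was at 0.218, 0.142 and 0.0966 FPKM in IR brains and at 0.197, 0.0629 and 0.155 FPKM in mock brains. Psme2b was at 0.0923, 0.442 and 0.242 FPKM in IR brains and at 0.361, 0.308 and 0.417 FPKM in mock brains. The longest Psme2 and Psme2b transcripts in GENCODE were identical at 99.4% of 794 aligned bases, so the division of reads between Psme2 and Psme2b is uncertain. Psmc3ip was tested and was not called, at a log2 change of 0.20 (limma adjusted p = 0.63).

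Genes that work with the proteasome were read from 5 lists, with 52 tested genes in all. Of these, 4 were called higher and 0 lower in limma, against 3.48% and 4.24% of all tested genes. The counts at an unadjusted p under 0.05 are given with each list. Over all tested genes 11.7% were higher and 13.9% lower at that unadjusted threshold. Among 21 partners and regulators 0 were called, with 1 above and 2 below mock at an unadjusted p under 0.05. They include Nfe2l1, the transcription factor that raises proteasome genes when activity falls short, at a log2 change of -0.0043 with a 95% interval of -0.34 to 0.33, and Pomp, the chaperone of core maturation, at 0.23 (SE 0.28, limma adjusted p = 0.64). Pomp was at 299.0, 146.3 and 162.0 FPKM in IR brains and at 141.8, 191.9 and 162.5 FPKM in mock brains, so that IR 1 alone was high. Among 6 ubiquitin and ubiquitin-activating genes 0 were called, and 0 had an unadjusted p under 0.05. Their median log2 change was 0.43.

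Of the 12 genes of MHC class I peptide loading, 11 were tested, 1 was called higher and 0 lower (2 and 1 at an unadjusted p under 0.05). The 1 was Tap1, at 2.60, 2.53 and 2.70 FPKM in IR brains and 1.52, 0.905 and 1.31 FPKM in mock brains, which did not overlap (log2 change 0.85, SE 0.19, limma adjusted p = 0.032). That size was near those of Psmb8 and Psmb9 on either side of it. Tap2, the other transporter chain, was not called, at 0.29 with an SE of 0.21 (limma adjusted p = 0.42). The Tap1 call held in 8 of 16 alternative settings and, among single libraries left out, only without IR 1. B2m, the light chain of class I molecules, was at 198.0, 127.8 and 155.6 FPKM in IR brains and at 110.0, 131.3 and 124.3 FPKM in mock brains, and was not called (log2 change 0.38, SE 0.20, limma adjusted p = 0.28).

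Of 10 interferon transcription factors, 9 were tested, 1 was called higher and 0 lower (1 and 1 at an unadjusted p under 0.05). Irf1, which drives the inducible subunits after interferon-gamma, was at 3.38, 3.53 and 3.99 FPKM in IR brains and at 3.04, 3.12 and 3.60 FPKM in mock brains (log2 change 0.14, SE 0.16, limma adjusted p = 0.62). Irf7 was the 1 called, at 5.61, 6.45 and 6.18 FPKM in IR brains and 2.33, 2.58 and 1.85 FPKM in mock brains (limma adjusted p = 0.0041), and its call held in each of 16 settings.

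Of 6 interferon-induced genes of ubiquitin-like modification, 5 were tested, 2 were called higher and 0 lower (3 and 0 at an unadjusted p under 0.05). Isg15, a ubiquitin-like modifier, was at 13.8, 9.15 and 6.69 FPKM in IR brains and at 3.74, 3.84 and 3.63 FPKM in mock brains. Usp18, which removes ISG15, was at 3.44, 3.27 and 2.12 FPKM in IR brains and at 0.613, 0.891 and 1.29 FPKM in mock brains. Both were apart between groups, with log2 changes of 1.23 (SE 0.24, limma adjusted p = 0.021) and 1.27 (SE 0.24, limma adjusted p = 0.019), and both calls were lost without mock 1 or mock 2, that of Isg15 also without mock 3 and that of Usp18 also without IR 2. Ubd, the modifier FAT10 that targets proteins to the proteasome, was listed at 0 in the IR brains and in mock 3, and at 0.0675 and 0.0419 FPKM in mock 1 and 2.

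Markers of cell types differed in part between the groups. The summed FPKM of 10 microglial genes was 128.0 to 167.6 in IR and 118.7 to 138.7 in mock brains, and overlapped. Of those 10, 4 (Aif1, Tmem119, Fcrls and Trem2) had each IR brain above each mock brain, and Fcrls alone was called, at a log2 change of 1.05 (limma adjusted p = 0.021). The sum of 6 T cell genes was 1.23 to 2.33 in IR and 0.544 to 0.924 in mock brains. Lck made up most of it and was called higher (log2 change 0.87, limma adjusted p = 0.047), while Cd3e, Cd3d, Cd3g and Cd8a were each listed at 0 in at least 1 library. Endothelial (4 genes), neuronal (4) and astrocyte (4) sums overlapped. The neuronal sum was mostly Snap25, which had each IR brain below each mock brain (log2 change -0.22, limma adjusted p = 0.55). Map2 had each IR brain above each mock brain (log2 change 0.35, limma adjusted p = 0.18). Syt1 and Rbfox3 overlapped, at log2 changes of 0.86 and 0.18. Among the astrocyte genes Aqp4 was called lower, at 28.3, 32.4 and 23.6 FPKM in IR brains and at 57.7, 64.8 and 50.9 FPKM in mock brains (log2 change -1.03, limma adjusted p = 0.012). Slc1a3 also had each IR brain below each mock brain, at a log2 change of -0.49 (limma adjusted p = 0.12), and Gfap and Aldh1l1 overlapped. The sum of 4 oligodendrocyte genes was 2144 to 3835 in IR and 4509 to 5565 in mock brains. The part of these markers in the rise of Psmb8, Psmb9 and Psme1 was not tested, and in bulk tissue more cells of a type and more RNA per cell cannot be told apart.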

How the data were processed

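RNA from 3 IR and 3 mock brains was depleted of ribosomal RNA, made into stranded libraries and sequenced as single reads, per the labels' protocols. The authors deposited FPKM values in 1 table with a column per library. The submitters' processing notes name TopHat, Cufflinks, Cuffdiff and the build mm10. No source used here gives their versions, the strand setting, the annotation or the scaling totals, so depth is unknown. The FPKM summed to 472450 to 625782 per library. After removal of 1 leftover header line, log2(FPKM + 0.5) of genes averaging 0.5 FPKM or more was fitted with limma 3.58.1 in R 4.3.3 (group only, trended empirical Bayes, two-sided, Benjamini-Hochberg over all 14585 genes), which was tested on simulated data. The mice are separate samples of a group per the labels, and replicate numbers are not stated to mark a litter or day. Ratios of pairs used an exact permutation test (scipy 1.17.1). The members, lists and tests were chosen with earlier results of these data known. Named genes were the inducible members and their counterparts, called members, the highest and lowest of each role, members below the filter, called pathway genes and listed pathway genes (Irf1, Nfe2l1, Pomp, Tap1 and B2m); another listed gene is not reported here. Others, named as examples of a role, were chosen after their values were seen. Alternatives were pseudocounts of 0.1 and 1, other filters, scalings and variance settings, the replicate number as a block and leaving out libraries.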

Additional observations from a re-analysis of the deposited data

How the results depend on the processing

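The count of inducible members called higher, which is also the count for all proteasome genes, was 3 as reported. It was 1 with a pseudocount of 0.1 (Psmb9), 0 without a filter on low values, 0 without mock 2 and IR 1 together, and 0 to 2 on leaving out 1 library. It was 3 with a pseudocount of 1, library weights, robust empirical Bayes, quantile normalization, median centring or a minimum mean of 1 FPKM. With the replicate number as a block it was 0, and over all genes 401 were higher and 394 lower. The calls of Tap1 and Usp18 were lost under it too, and those of Irf7 and Isg15 were kept. The numbers are not stated to pair the mice. Deviations of same-numbered libraries from their group means had correlations of -0.33, 0.19 and 0.20. Those of differently numbered libraries ran from -0.49 to 0.23. Over all genes, 508 were higher and 618 lower as reported, 863 and 976 with library weights, and 147 to 673 and 254 to 695 on leaving out 1 library. Median centring gave 687 higher and 571 lower, and leaving out mock 2 and IR 1 together gave 620 and 672. The count of constitutive subunits called was 0 in each of the 16 settings. The median log2 change of the inducible members ran from 0.63 to 1.01, and that of the constitutive subunits from 0.02 to 0.35. Differences of the log2 ratio ran from 0.09 to 0.37 for Psmb8/Psmb5, 0.55 to 0.83 for Psmb9/Psmb6 and 0.41 to 0.92 for Psmb10/Psmb7. The causes of these shifts were not tested. Depth is unknown, so what it limits could not be judged.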

Other observations

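Of the 21 partners of the proteasome, 0 were called in limma, 2 had each IR brain above each mock brain and 2 had each IR brain below; the genes named here were chosen after their values were seen. The 2 above were the ubiquitin shuttle genes Ubqln2 and Ubqln4. Ubqln2 was at 66.2, 72.1 and 83.7 FPKM in IR brains and at 59.3, 52.0 and 64.6 FPKM in mock brains (limma adjusted p = 0.25). Ubqln4 was at 44.5, 34.8 and 41.7 FPKM in IR brains and at 31.1, 27.9 and 33.5 FPKM in mock brains (limma adjusted p = 0.19). The 2 below were Ngly1 and Zfand5. Ngly1, the glycanase that processes the Nfe2l1 protein, was at 8.28, 7.78 and 7.79 FPKM in IR brains and at 9.76, 14.1 and 10.3 FPKM in mock brains (limma adjusted p = 0.14). Zfand5, a zinc-finger protein that stimulates the proteasome, was at 14.2, 13.6 and 13.5 FPKM in IR brains and at 18.4, 22.6 and 16.8 FPKM in mock brains (limma adjusted p = 0.12). Downstream of the proteasome, Erap1, the peptidase that trims peptides for class I molecules, was at 1.66, 1.96 and 1.80 FPKM in IR brains and at 2.53, 3.03 and 2.36 FPKM in mock brains (limma adjusted p = 0.15). Stat2, a transcription factor of type I interferon signalling, was at 5.03, 5.94 and 6.72 FPKM in IR brains and at 9.07, 9.33 and 8.03 FPKM in mock brains (limma adjusted p = 0.082). For Ngly1, Zfand5, Erap1 and Stat2 every IR brain was below every mock brain, as for 17.7% of all tested genes, and IR above mock was found for 13.7%. Erap1 and Stat2 were each the only 1 below mock in their lists. Of the 11 tested class I loading genes 3 had each IR brain above each mock brain, as had 3 of the 9 tested interferon transcription factors. H2-K1 was among those above that were not called (log2 change 0.61, limma adjusted p = 0.069). H2-D1, in the same list, went the other way, and its groups overlapped (log2 change -0.26, limma adjusted p = 0.35).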
